A study of Mus musculus with 5 samples.

Results

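Growth and trophic factors that microglia can release were followed through 10 genes: Pdgfa, Pdgfb and Pdgfc, Vegfa and Vegfb, Hbegf, Gdf15, Bdnf, Tnfsf12 and Grn. They were chosen by gene symbol and are 10 of the 23420 rows of the deposited expression table. Microglia are the resident macrophages of the brain, and the study concerned their signalling through the transcription factor STAT3 while the forebrain develops after birth. The 5 polyA RNA sequencing libraries came from CD11b+, propidium iodide-negative forebrain cells of mouse pups at postnatal day 8, each library from 2 to 4 pooled pups of both sexes. The group labelled knockout held 3 libraries of genotype Cx3cr1CreER;Stat3ff, whose pups had tamoxifen each day from postnatal day 1 to 3. The control group held 2 libraries of littermates with genotype Stat3ff and no Cre, for which tamoxifen is not given in the sources used here. All 5 libraries therefore carried floxed Stat3, and the libraries labelled knockout also carried an inducible Cre in 1 copy of Cx3cr1, a gene used by microglia and by other macrophages and monocytes.

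Secreted growth factors act on receptors of neighbouring cells. PDGF dimers act on PDGF receptors of oligodendrocyte precursors, pericytes and fibroblasts, VEGF proteins act on endothelial receptors, and HB-EGF is shed from the membrane to activate EGF receptors. BDNF acts on TrkB of neurons, TWEAK (the product of Tnfsf12) acts on Fn14, GDF15 is a stress-induced hormone, and progranulin (the product of Grn) is secreted and also needed in lysosomes, where microglia are a main source in brain.

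The table gives values that were taken as log2 and that are centred per gene on a reference outside the table, so libraries can be compared within a gene and genes cannot be ranked by level. Many rows followed 1 fixed pattern over the libraries, which was taken as the value given where no reads were counted and is called the no-read value. Pgk1 and Eno1, glycolytic enzyme genes that every cell uses, were at it in all 5 libraries, so the value cannot be read as absence of expression. It can be recognised only where at least 3 libraries share it, so a single library or a pair at that value goes unseen. Genes above it in at least 2 libraries were tested, 9400 in all. The depth of the libraries is unknown. All 16 listed microglia markers, Tmem119 and P2ry12 among them, were tested, and none was at the no-read value in 3 or more libraries. Stat3 did not separate the groups, with control values of 0.08 and 0.45 beside 0.96, 0.07 and 0.24 in the libraries labelled knockout. Its log2 difference was 0.17 with SE 0.42 (limma adjusted p = 0.947). A value per gene does not show which exons were read, so this measurement can neither bear out nor refute the labels. Groups are therefore called by their labels throughout. Cx3cr1, which carries the Cre, had a difference of -0.90 with SE 0.37 (limma adjusted p = 0.638) and was lower in every library labelled knockout. Values of the tested genes were shifted between the groups as a whole, with a median log2 difference of 0.14 and 60% of genes higher in the libraries labelled knockout.

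Of the 10 factors, 4 were at the no-read value in at least 4 libraries. This state was common in the whole table, where 20.1% of named genes were at that value in all 5 libraries and 9.94% in 4. Pdgfc was at the no-read value in all 5 libraries. Pdgfa, Vegfa and Bdnf were at it in 4, and in each of these genes labelled knockout replicate 1 was the library above it. Hbegf and Tnfsf12 were at it in 3 libraries, and Pdgfb, Vegfb, Gdf15 and Grn were not found at it. Labelled knockout replicate 1 was thus not found at the no-read value for 9 of the 10 factors, against 4 and 5 in labelled knockout replicates 2 and 3 and 4 and 5 in control replicates 1 and 2. It was the highest library for 6 of those 9, and the lowest for Vegfb and Gdf15, where a single library at the no-read value would go unseen. Over the whole table this library did not stand first. Of 2326 genes at the no-read value in 4 libraries, 549 (23.6%) were above it in labelled knockout replicate 1, 589 and 643 in labelled knockout replicates 2 and 3, and 153 and 392 in control replicates 1 and 2. Neural markers were not most frequent in this library: 2 of 14 neuronal markers and 2 of 11 astrocyte markers were not at the no-read value there, against 1 to 4 and 3 to 6 in the other libraries. Monocyte and neutrophil markers were most often not found at that value in this library, with 9 of 13 and 9 of 12, against 6 to 8 and 4 to 7. Border macrophage markers were so most often in labelled knockout replicate 3, with 11 of 12 against 9 in labelled knockout replicate 1. Oligodendrocyte lineage markers were too, with 5 of 12 against 2. The part of any of these cell types in the values of Pdgfa, Vegfa and Bdnf was not tested.

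**Figure D1:**
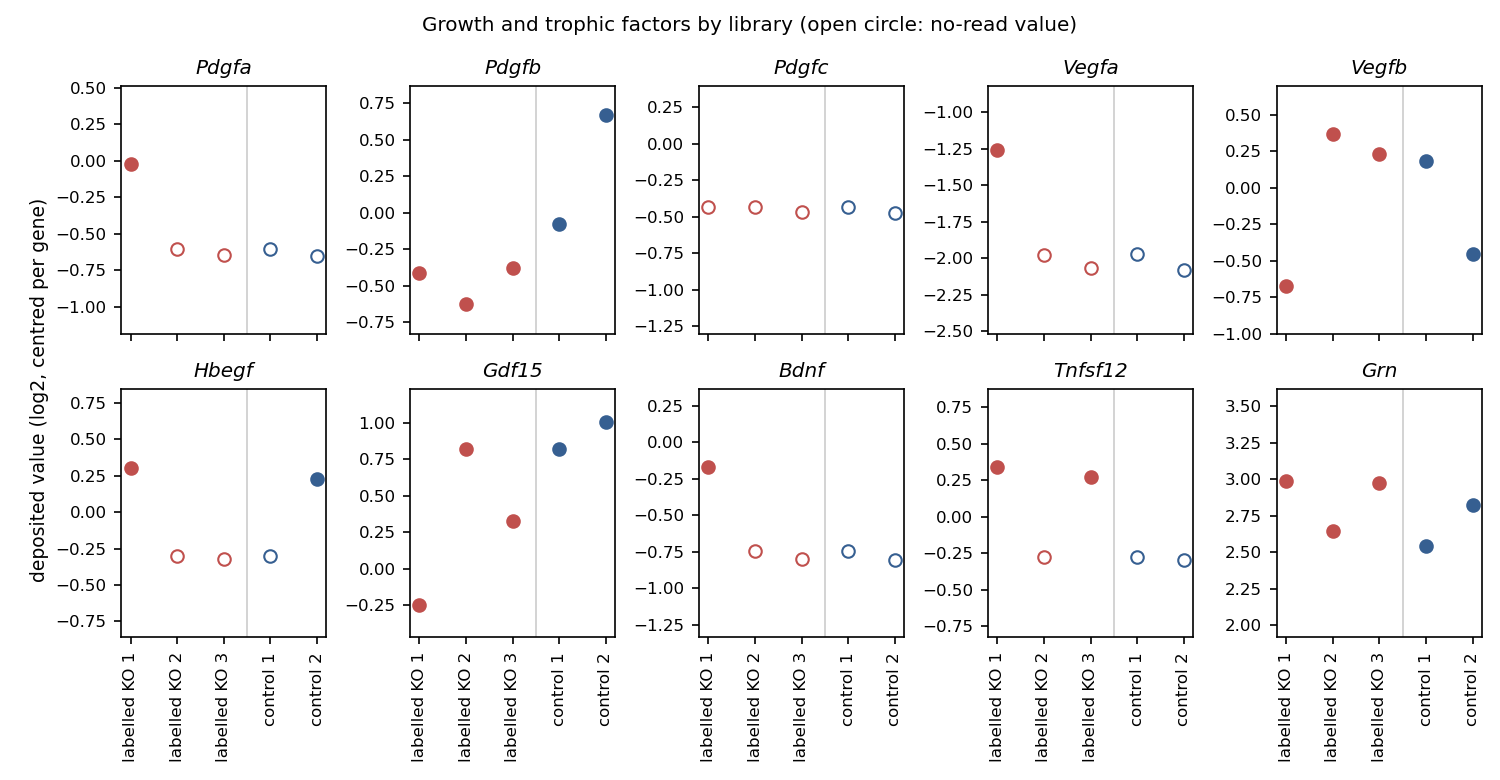
Deposited value (log2 scale, centred per gene) of each of the 10 factors in the 3 libraries labelled knockout (labelled KO, red) and the 2 controls (blue); every panel spans the same number of log2 units and open circles mark the no-read value. Pdgfa, Vegfa and Bdnf leave that value in labelled knockout replicate 1 alone, and Pdgfb is lower in all 3 libraries labelled knockout than in both controls.

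**Figure D2:**
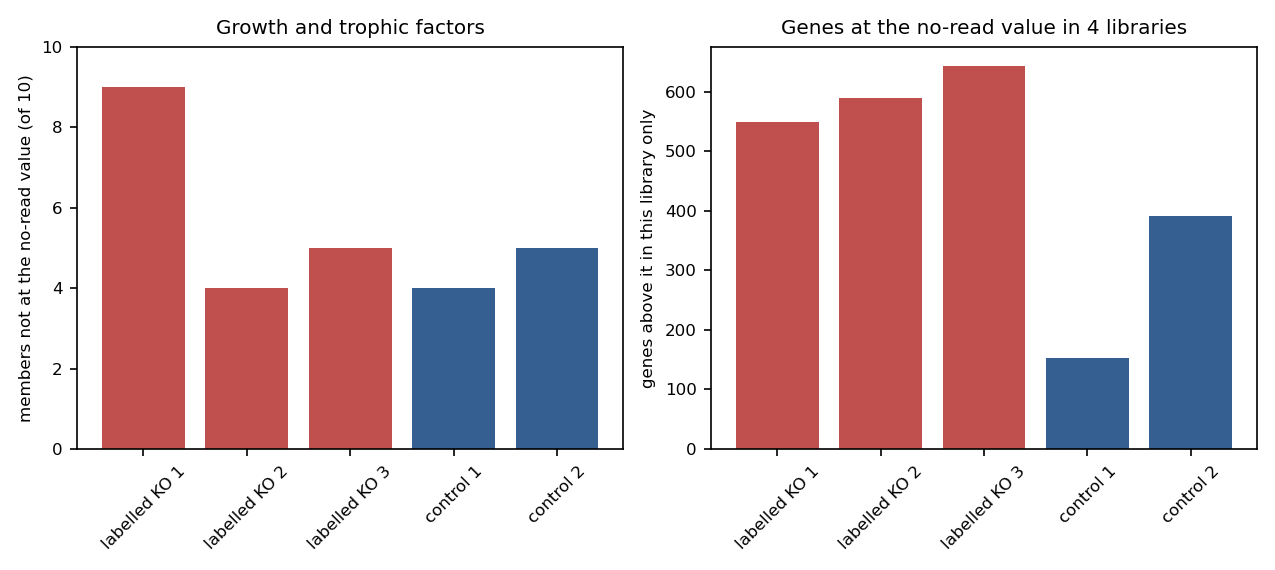
Left, number of the 10 factors not found at the no-read value in each library (3 libraries labelled KO, red; 2 controls, blue). Right, number of genes of the whole table that lie above that value in the given library alone; labelled knockout replicate 1 has 9 factors on the left and 549 genes on the right, fewer than the 589 and 643 of the other libraries labelled knockout.

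Among the platelet-derived growth factors, Pdgfb alone could be tested, and it stood lowest in the libraries labelled knockout. Pdgfb encodes the B chain that recruits pericytes to growing vessels (GRCm38 chromosome 15, 79995874 to 80014977). Its values were -0.08 and 0.67 in the controls, beside -0.41, -0.63 and -0.38 in the libraries labelled knockout. Each library labelled knockout lay below both controls, and control replicate 2 stood 0.75 above control replicate 1, while the nearest libraries of the 2 groups were 0.30 apart. Pdgfb averaged -0.47 ± 0.14 (SD, n = 3) in the group labelled knockout against 0.29 ± 0.53 (SD, n = 2). The log2 difference was -0.77 (SE 0.39), with a 95% interval of -1.67 to 0.13, and it did not pass (limma adjusted p = 0.703). Only 4.77% of tested genes had a lower difference. Without control replicate 2 the difference was -0.395, and without control replicate 1 it was -1.14.

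Pdgfa, whose product drives oligodendrocyte precursors through PDGF receptor alpha, stood at -0.020 in labelled knockout replicate 1 (chromosome 5, 138976014 to 138997370). The no-read values in the other libraries ran from -0.65 to -0.60, and labelled knockout replicate 1 lay 0.58 above the highest of them. An antisense gene, 6330403L08Rik, covers 26.1% of Pdgfa exon bases, and the library kit does not mark strand, so reads of the pair cannot be told apart. Pdgfc, which encodes a factor that needs proteolytic release before it binds its receptor, ran from -0.47 to -0.43, which is the no-read pattern itself (chromosome 3, 81036416 to 81214040). Neither gene entered the test. The controls and labelled knockout replicates 2 and 3 are alike for Pdgfa in lying at the no-read value, and only labelled knockout replicate 1 lies above it.

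Vegfa, the main driver of vessel growth, was above the no-read value in 1 library, while its relative Vegfb varied within both groups. Vegfa (chromosome 17, 46016993 to 46032369) stood at -1.26 in labelled knockout replicate 1 and from -2.08 to -1.97 in the other libraries. Labelled knockout replicate 1 lay 0.72 above the highest no-read value, and both controls were at that value. Vegfa therefore entered no test, and its values in labelled knockout replicates 2 and 3 and in the controls differ only by the steps of the pattern. Vegfb encodes a VEGF receptor 1 ligand linked to lipid uptake and cell survival (chromosome 19, 6982473 to 6987651). Its values were 0.18 and -0.45 in the controls, beside -0.67, 0.37 and 0.23 in the libraries labelled knockout. Labelled knockout replicate 1, the library in which Vegfa was above the no-read value, was the lowest for Vegfb, and the groups overlapped. The log2 difference of Vegfb was 0.11 (SE 0.45), with a 95% interval of -0.92 to 1.14 (limma adjusted p = 0.972). It had no stable direction, being 0.433 without labelled knockout replicate 1, -0.209 without control replicate 2 and -0.136 with libraries centred on their median.

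Hbegf and Gdf15 showed no difference beyond the spread between libraries. Hbegf encodes the heparin-binding EGF-like ligand (chromosome 18, 36504927 to 36515805) and was above the no-read value in 1 library of each group. It stood at 0.30 in labelled knockout replicate 1 and 0.22 in control replicate 2. Labelled knockout replicates 2 and 3 and control replicate 1 were at the no-read value, from -0.32 to -0.30. The log2 difference was -0.07 (SE 0.40), with a 95% interval of -0.99 to 0.85 (limma adjusted p = 0.972), and it turned to 0.193 without control replicate 2, 0.0289 without labelled knockout replicate 2 and 0.0398 without labelled knockout replicate 3.

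Gdf15, a secreted TGF-beta superfamily member induced by cell stress (chromosome 8, 70629393 to 70632456), gave -0.25, 0.82 and 0.32 in labelled knockout replicates 1 to 3. The controls stood at 0.82 and 1.01. All 3 libraries labelled knockout were nominally below both controls, but labelled knockout replicate 2 differed from control replicate 1 by only -0.0038, so those libraries are in effect tied. The mean was 0.30 ± 0.54 (SD, n = 3) against 0.91 ± 0.13 (SD, n = 2). The log2 difference was -0.62 (SE 0.43), with a 95% interval of -1.59 to 0.35 (limma adjusted p = 0.776). It was -0.343 without labelled knockout replicate 1, the library with the lowest value.

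Bdnf, the neurotrophin that binds TrkB, was above the no-read value in 1 library (chromosome 2, 109674700 to 109727007). It stood at -0.17 in labelled knockout replicate 1 and from -0.81 to -0.74 at the no-read value elsewhere, 0.58 above the highest of these. The antisense gene Gm45346 covers 14.4% of its exon bases, and reads of that overlap cannot be assigned without strand. With 1 of 3 libraries labelled knockout and 0 of 2 controls above the no-read value, Bdnf did not enter the test.

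Vegfa, Bdnf and Pdgfa share the pattern of being above the no-read value in labelled knockout replicate 1 alone, and upstream sequences of Vegfa and Bdnf are shown because the study concerns STAT3. Those of Pdgfa are not printed, since its most upstream window lies in annotated exons for 232 of 250 bases, and both of its windows hold no STAT palindrome. The windows are the 250 bases before the most upstream start that RefSeq lists for each gene (GRCm38.p6), chr17:46032378-46032627 on the minus strand and chr2:109674450-109674699 on the plus strand. Capitals mark the STAT palindrome TTCNNNGAA and the GC box core GGGCGG, each searched on both strands, and the motifs do not overlap here.
Vegfa: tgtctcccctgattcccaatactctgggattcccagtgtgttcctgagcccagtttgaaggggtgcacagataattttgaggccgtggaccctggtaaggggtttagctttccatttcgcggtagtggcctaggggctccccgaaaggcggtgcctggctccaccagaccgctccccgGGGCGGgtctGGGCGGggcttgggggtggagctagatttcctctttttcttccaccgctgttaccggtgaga
Bdnf: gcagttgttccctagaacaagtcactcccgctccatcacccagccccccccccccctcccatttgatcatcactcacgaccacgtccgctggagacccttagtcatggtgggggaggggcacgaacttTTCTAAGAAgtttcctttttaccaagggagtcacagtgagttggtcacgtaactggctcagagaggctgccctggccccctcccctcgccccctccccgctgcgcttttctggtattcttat
The Bdnf window holds 1 STAT palindrome, starting 122 bases before the start, and no GC box core. RefSeq lists 7 Bdnf windows, and the other 6 hold no STAT palindrome. The Vegfa window holds 2 GC box cores and no STAT palindrome. Of the 10 factors, 7 had windows in the RefSeq table, 16 windows in all. The STAT palindrome was in 1 of the 16 and in 7.02% of all 32851 windows of that length, and the GC box core was in 8 of the 16 and in 32.7% of all windows. These are matches of letters and say nothing of binding.

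Tnfsf12 was above the no-read value in 2 libraries, both labelled knockout, and Grn varied little over the 5 libraries. Tnfsf12 encodes the cytokine TWEAK (chromosome 11, 69686250 to 69695849). It stood at 0.34 and 0.27 in labelled knockout replicates 1 and 3, and at the no-read value, from -0.30 to -0.27, in labelled knockout replicate 2 and both controls. The groups overlapped through labelled knockout replicate 2, which was at the no-read value, like the controls, and with both controls there the gene could only be higher in the group labelled knockout. The log2 difference was 0.40 (SE 0.38), with a 95% interval of -0.47 to 1.27 (limma adjusted p = 0.797), and it was 0.154 with libraries centred on their median. Its value is uncertain, since 48.3% of Tnfsf12 exon bases are shared on the same strand with the overlapping gene Tnfsfm13. The neighbour Tnfsf13, whose product is the cytokine APRIL, was above the no-read value in labelled knockout replicate 2 alone, at 0.48.

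Grn encodes progranulin (chromosome 11, 102430315 to 102437048). Its control values were 2.54 and 2.83, and labelled knockout replicates 1 to 3 gave 2.99, 2.64 and 2.98. Control replicate 2 lay above labelled knockout replicate 2, so the groups overlapped. Grn averaged 2.87 ± 0.20 (SD, n = 3) in the group labelled knockout against 2.68 ± 0.20 (SD, n = 2). The log2 difference of 0.19 (SE 0.37, 95% interval -0.65 to 1.03) was no larger than the spread within a group (limma adjusted p = 0.914), and it was -0.0595 with libraries centred on their median. Among the 10 factors, Grn ranged least over the libraries of those not found at the no-read value, 0.45 log2 units, against 1.04 to 1.30 for Vegfb, Gdf15 and Pdgfb.

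**Figure D3:**
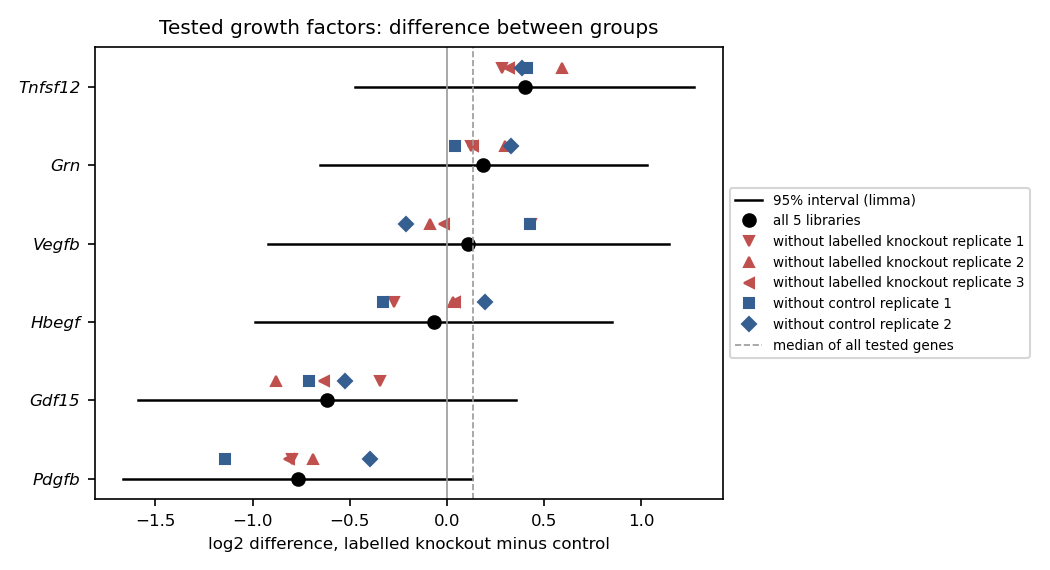
Log2 difference (libraries labelled knockout minus controls) of the 6 tested factors with its limma 95% interval, from all 5 libraries (black) and with each library left out (coloured symbols); the dashed line is the median of all tested genes, 0.14. Every interval crosses 0, and the estimates of Vegfb and Hbegf change sign when single libraries are left out.

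Over the 6 tested factors, 3 were higher and 3 lower in the libraries labelled knockout. Tnfsf12, among the higher, was at the no-read value in both controls and could only be higher. The median log2 difference of the 6 was 0.02 beside 0.14 for all tested genes. Quantile normalization turned the median of the 6 to -0.175, beside -0.00951 for all tested genes. Centring each library on its median turned it to -0.225, beside -0.111. The median of the factors ran from -0.143 to 0.0111 with 1 library left out. It was 0.148 without the filter, over all 10 factors. None passed the adjusted threshold of 0.05 in limma, and 0% of the 9400 tested genes passed it in either direction. At an unadjusted limma p under 0.05 the count was 0 of the 6, against 5.6% of all tested genes higher and 2.11% lower. Pdgfb and Gdf15, the latter by a near tie, lay below both controls in every library labelled knockout, 2 of 6 factors against 7.06% of tested genes. In the other direction the count was 0 of 6, against 13.8% of tested genes. The standard errors ran from 0.37 to 0.45, so the intervals leave room for differences of about 1 log2 unit in several factors. In these sorted cells, fewer expressing cells and less RNA per cell cannot be told apart.

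Most receptors and co-receptors for these factors were at the no-read value in at least 4 libraries or listed at 0. So were most other growth factors and most genes of the table, where 9400 of 23393 named genes were tested. Over all named genes, 29.8% were listed at 0 throughout and 20.1% were at the no-read value in all 5 libraries. Of 22 listed receptors, 9 were tested, 2 were listed at 0 throughout and 8 were at the no-read value in all 5 libraries. Those 8 include Pdgfra, the PDGF receptor of oligodendrocyte precursors, and Flt1, which encodes VEGF receptor 1. Ntrk2, which encodes the BDNF receptor TrkB, was above the no-read value in labelled knockout replicate 1 alone, as Bdnf was. That pattern held for 549 genes, 2.35% of all named genes, and a link between the 2 genes was not tested. Of the 9 tested receptors 5 were higher and 4 lower, 0 passed, and the median log2 difference was 0.08, which turned to -0.169 with libraries centred on their median and to -0.113 after quantile normalization. It was 0.496 without control replicate 2 and -0.0376 without labelled knockout replicate 3. Cd163, a macrophage scavenger receptor reported to bind TWEAK, and Nrp2, a VEGF co-receptor, had the smallest p. Cd163 read -0.28, 0.43 and 1.61 in labelled knockout replicates 1 to 3 against -0.55 and -0.43 in the controls, a log2 difference of 1.08 with SE 0.55 (limma adjusted p = 0.703). Nrp2 stood at 1.12, 1.11 and 1.40 against 0.06 and 0.94, a log2 difference of 0.71 (limma adjusted p = 0.749). Kdr, which encodes VEGF receptor 2, was set apart by control replicate 1 at 2.31, with the other libraries from -0.47 to 0.24.

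Of 60 listed further growth and trophic ligands, 16 were tested, 10 were listed at 0 throughout and 27 were at the no-read value in all libraries. Among those 27 were Gdnf, Fgf2 and Hgf, all classical neurotrophic or mitogenic factors. The tested ligands split into 8 higher and 8 lower, 0 passed, and the median log2 difference was 0.03 (-0.213 with libraries centred on their median, -0.0646 after quantile normalization). Tnfsf13b, which encodes the B cell factor BAFF, gave 0.67, 0.25 and 0.18 in labelled knockout replicates 1 to 3, above both controls at -0.37 and -0.40. Its log2 difference was 0.75 with SE 0.37 (limma adjusted p = 0.693). Ptn, which encodes the heparin-binding factor pleiotrophin, was above the no-read value in labelled knockout replicates 2 and 3, at -1.57 and -0.54, a log2 difference of 0.83 (limma adjusted p = 0.755). Both controls were at that value, so Ptn could only be higher, and for Tnfsf13b a pair of controls at it would go unseen.

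No gene that releases or matures the factors passed. Of 17 tested genes in this list 12 were higher and 5 lower, beside 60% higher over all tested genes. Those clear of both controls in all 3 libraries labelled knockout numbered 4 of the 17, beside 13.8% of all tested genes, and the median log2 difference was 0.28. Mmp9, which encodes a matrix protease, was at the no-read value in both controls and could only be higher. Plau encodes urokinase, a plasminogen activator, and stood at 1.16, 0.83 and 1.50 against 0.39 and -0.31. Its log2 difference was 1.12 with SE 0.41 (limma adjusted p = 0.615). Adam10, a membrane sheddase, stood at 1.62, 1.95 and 2.04 against 1.28 and 0.44, a log2 difference of 1.01 with SE 0.41 (limma adjusted p = 0.638). With libraries centred on their median this list had a median of 0.0372, beside -0.111 for all tested genes.

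The progranulin and lysosome partners were all tested, 21 of 21, with 14 higher, 7 lower, 0 past the threshold and a median log2 difference of 0.14, as for all tested genes (-0.109 with libraries centred on their median). Tmem106b, a lysosomal membrane protein gene linked to progranulin deficiency, stood farthest apart. Its values were -0.76 and -0.29 in the controls but 0.74, 1.10 and 0.61 in the libraries labelled knockout, a log2 difference of 1.34 with SE 0.39 (limma adjusted p = 0.615). All 3 libraries labelled knockout lay above both controls. Mitf, a transcription factor of lysosomal genes, had a log2 difference of 1.11 with SE 0.54 (limma adjusted p = 0.69), with labelled knockout replicate 3 below control replicate 1.

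Lists for the known inducers of Vegfa and Gdf15 also held no gene past the threshold. Of 21 tested hypoxia response genes, which include Vegfa's regulators, 15 were higher and 6 lower, with a median log2 difference of 0.18 (-0.067 with libraries centred on their median). Kdm3a, a hypoxia-induced histone demethylase, stood at 0.45, 0.44 and 0.73 against -0.23 and -0.84, a log2 difference of 1.08 with SE 0.39 (limma adjusted p = 0.615). Slc16a3, a lactate exporter, had a log2 difference of 1.15 with SE 0.44 (limma adjusted p = 0.626). Of 28 tested integrated stress response genes, 19 were higher and 9 lower, 8 exceeded both controls in all 3 libraries labelled knockout, and the median was 0.40 (0.151 with libraries centred on their median, 0.287 after quantile normalization). Asns and Mthfd2 were at the no-read value in both controls and could only be higher. A pair of controls at that value goes unseen, so more of the 19 may have been limited in this way. Over all tested genes 60% were higher and 13.8% exceeded both controls in all 3 libraries labelled knockout. Slc7a11, the cystine transporter, stood at 0.64, 0.10 and 0.85 against -0.83 and -0.89, a log2 difference of 1.39 with SE 0.39 (limma adjusted p = 0.615). Its controls may be such an unseen pair. Cdkn1a, the cell cycle inhibitor p21, had a log2 difference of 1.24 with SE 0.41 (limma adjusted p = 0.615). The list was drawn broadly and also held genes of the p53 response, with Cdkn1a, Mdm2, Trp53 and Sesn1 among them. The median of the stress list was 0.222 without labelled knockout replicate 1, while Gdf15 itself had a log2 difference of -0.62.

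**Figure D4:**
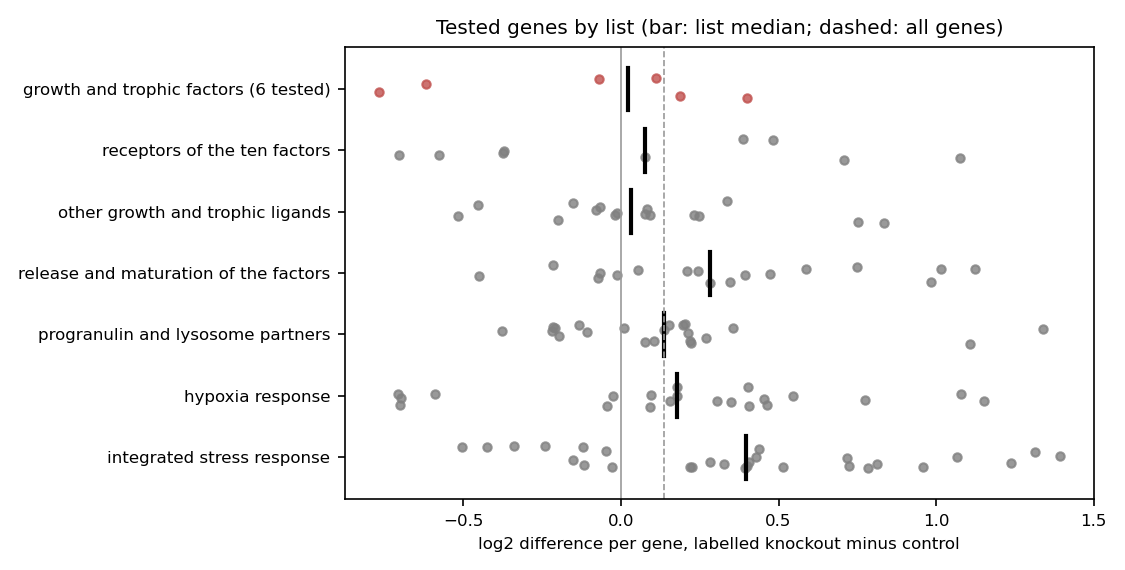
Log2 difference (libraries labelled knockout minus controls) of each tested gene, in rows for the 6 tested factors and 6 pathway lists; thick bars are list medians, the dashed line is the median of all tested genes (0.14), and points are spread vertically for display alone. The factors have a median of 0.02 and the integrated stress response list one of 0.40.

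Patterns over the 5 libraries were compared for the 3 tested factors that ranged most, by the root mean square difference of gene-centred values. H3f3a was nearest to Pdgfb, at 0.107, with 0.68, 0.68 and 0.89 in the libraries labelled knockout and 1.01 and 2.00 in the controls, and Chpf2 was next at 0.112. Nearest to Gdf15 were Ing2 at 0.080 and Map2k2 at 0.087, both lowest in labelled knockout replicate 1. Nearest to Vegfb were Abcb10 at 0.059 and Uqcr10 at 0.084, also lowest in that library. With 5 libraries and 9400 genes, near neighbours of this kind are a description of shape.

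Markers of other cell types that could be in the sort were often at the no-read value, and none of those tested passed the threshold in limma. Of 14 endothelial markers 10, Cldn5 and Vwf among them, were at the no-read value in all libraries, beside 20.1% of all named genes. Of the 14, 3 were tested, 1 higher and 2 lower. Of 12 oligodendrocyte lineage markers 3 were tested, of 14 neuronal markers 4, of 11 astrocyte markers 7, of 13 mural and fibroblast markers 2, of 11 lymphocyte markers 1 and of 7 red blood cell markers 1. Within the astrocyte list 4 of the 7 were higher, of which 3 were at the no-read value in both controls, with a median log2 difference of 0.11, and the neuronal median was 0.13, with 2 of the 4 at that value in both controls. Both medians turned negative under centring (-0.138 and -0.112) and under quantile normalization (-0.111 and -0.0698). The oligodendrocyte median was 0.45, the endothelial -0.06, the mural and fibroblast -0.02, the lymphocyte -0.33 and the red blood cell 0.27. All 8 tested monocyte markers had positive differences, as did 6 of 7 neutrophil markers and 7 of 10 border macrophage markers, beside 60% of all tested genes. Of these, 2 monocyte markers (Plac8, Ifitm6), 2 neutrophil markers (S100a8, Mmp8) and 2 border macrophage markers (Lyve1, Cbr2) were at the no-read value in both controls and could only be higher. The calprotectin subunit gene S100a9 stood at 2.29, 1.73 and 2.31 against -0.33 and -0.37 (limma adjusted p = 0.565). A pair of controls at the no-read value goes unseen, so S100a9 and further markers may also have been limited to being higher. The part of these markers in the values of the growth factors was not tested. Microglia markers had a median of -0.14, with 6 of 16 higher. Their median was -0.384 with libraries centred on their median and -0.00483 after quantile normalization.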

How the data were processed

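Values were used as the authors deposited them, 1 per gene and library. The deposited values were taken as log2 expression that the authors had normalized and centred per gene on a reference outside the table, as inferred from the values, since no label or header names the transform. Per the labels, 40 bp reads were aligned to GRCm38/mm10, and per the submitters' processing notes TopHat2 2.0.13 and DESeq2 were used, the latter with no version or role. Neither counter nor annotation is given in the sources used here.

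The no-read value was found from its fixed pattern across libraries, with a tolerance of 2% of its span. A lone library had to lie 0.05 above it to count as above it. Left out of the test were genes at it in 4 or 5 libraries, genes listed at 0 in every library, and 27 rows whose name had become a date, so that 9400 were tested. Groups were compared with limma 3.58.1 in R 4.3.3 (~ group, eBayes without trend), with Benjamini-Hochberg adjustment over all 9400 genes and a threshold of 0.05. The fit was tested on simulated data. Groups came from sample titles, and replicates are separate pools of pups.

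The 10 members, the 6 pathway lists, the 11 marker lists and the alternatives were chosen with earlier results of these data known. Named genes are the members, Stat3 and Cx3cr1, the 2 genes of each pathway list with the smallest p, and the 2 genes nearest in pattern to the 3 members of widest range. Receptors, ligands, markers (S100a9 among them) and other genes named beyond that rule were chosen after their values were seen. Coordinates come from GENCODE vM21 and upstream sequences from RefSeq. Figures were drawn with matplotlib 3.10.9.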

Additional observations from a re-analysis of the deposited data

How the results depend on the processing

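None of the 6 tested members passed in any of the 10 alternatives, with limma adjusted p from 0.618 to 1. Pdgfb and Gdf15 kept their direction in all 10. Tnfsf12 did so too, but with both controls at the no-read value it could only be higher in the deposited values. With a library left out, Pdgfb ran from -1.14 to -0.395, Gdf15 from -0.878 to -0.343, Tnfsf12 from 0.285 to 0.594, Grn from 0.0434 to 0.329, Vegfb from -0.209 to 0.433, Hbegf from -0.33 to 0.193, the member median from -0.143 to 0.0111, the receptor median from -0.0376 to 0.496, the hypoxia median from 0.131 to 0.257 and the stress response median from 0.222 to 0.492. With libraries centred on their median, Vegfb was -0.136 and Grn -0.0595, and the medians were -0.225 for the members, -0.213 for other ligands, 0.0372 for release and maturation, -0.109 for progranulin partners, -0.067 for hypoxia and 0.151 for stress response (all tested genes -0.111). Quantile normalization gave Vegfb -0.0936 and a member median of -0.175 (all tested genes -0.00951). The cause was not tested. Without the filter on low values 1 gene passed, Sord. The medians of the members, of release and maturation and of hypoxia were then 0.148, 0.0103 and 0.0933, over more genes. The median of all genes in that fit was 0.0117.

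Replicate numbers did not pair the libraries: deviations of same-numbered libraries correlated at 0.00233 and -0.067 across genes. The replicate block, which drops labelled knockout replicate 3, gave Vegfb -0.0177, Hbegf 0.0398 and a hypoxia median of 0.257, and 0 genes passed. Depth is unknown, so the number of reads behind a value cannot be given.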
